A study of Mus musculus with 11 samples.

Results

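Mouse epiblast stem cells (EpiSCs) have 62387 ChIP-seq peaks of POU5F1 on chromosomes 1 to 19 and X, and 12706 of them (20.4%) were selected here as POU5F1-only peaks away from alternating repeats, called members below. A peak was chosen by position and sequence: it shared no base pair with any EpiSC peak of ZIC2, OTX2, SOX2 or POU3F1, and no stretch of at least 20 bp of strictly alternating purines and pyrimidines lay within 100 bp of its midpoint in the mm9 genome. Of the 62387 peaks, 30160 met no POU3F1 peak, 24333 met none of the 4 other transcription factors (TFs), and 11627 of these were set aside because of an alternating stretch. What the selection used, namely the EpiSC peak positions and the long stretches, is given below as description. The activin-free peak lists, short sequence words and gene positions were not used by it.

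The study mapped 5 TFs in feeder-free EpiSCs of the 129/Sv strain, a cell line that models the epiblast after implantation. Each TF carried a biotin acceptor tag, was expressed together with the biotin ligase BirA from a transiently transfected pCAGGS plasmid with its ubiquitous promoter, and was pulled down on streptavidin beads from fixed chromatin sheared to about 150 bp. The EpiSC cultures were grown with activin at 20 ng/ml and Fgf2 at 10 ng/ml. A second series of cultures, called activin-free here, was made in the same way for the same 5 TFs but was freed from activin for 18 h before harvest. The peaks therefore describe an added, tagged factor beside the endogenous one, in a transfected population, with 1 library per TF and culture. No replicate spread can be given, and the intervals below (95% Wilson intervals of shares, 95% Newcombe intervals of differences between shares) cover counting error only and were not adjusted for the number of comparisons.

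POU5F1, also called OCT4, is a POU-family TF that maintains pluripotency in the epiblast and in embryonic stem cells. Its DNA-binding region joins a POU-specific domain, which reads ATGC, to a POU homeodomain, which reads the AT-rich remainder of the octamer ATGCAAAT, and the pair can also bind as homodimers or heterodimers on palindromic arrangements of the same parts. In pluripotent cells it often binds next to SOX2. POU3F1 is a related POU factor of the epiblast and early neural tissue that reads the same octamer, ZIC2 and OTX2 are epiblast and neural regulators with unrelated motifs, and activin signalling keeps EpiSCs in their primed pluripotent state.

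**Figure D1:**
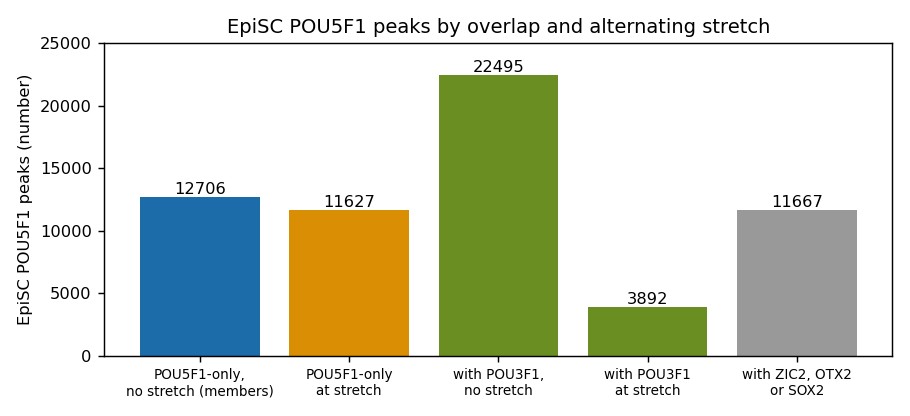
Number of EpiSC POU5F1 peaks (vertical axis) in 5 exclusive classes by overlap with other EpiSC peaks and by an alternating stretch of at least 20 bp. The 12706 selected peaks form the first bar, beside 11627 POU5F1-only peaks at stretches and 22495 peaks that met POU3F1 alone and had no stretch.

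Sequences of members are shown first, read from mm9, because the word content described below can be seen in them. The following 6 are the highest-scoring members with a perfect ATGCAAAT, 36 bp on each side of that word, turned so that it reads forwards. Capitals mark ATGCAAAT and the related words ATGCATAT, ATGCACAT and ATGCGCAT in either direction.
chr17:13233487-13233566, minus strand: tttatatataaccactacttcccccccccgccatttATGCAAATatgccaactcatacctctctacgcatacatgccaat
chr2:179521182-179521261, minus strand: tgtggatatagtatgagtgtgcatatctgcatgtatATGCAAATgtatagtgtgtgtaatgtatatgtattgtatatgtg
chr5:128624652-128624731, plus strand: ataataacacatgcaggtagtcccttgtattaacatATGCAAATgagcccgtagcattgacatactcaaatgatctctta
chr12:30004725-30004804, minus strand: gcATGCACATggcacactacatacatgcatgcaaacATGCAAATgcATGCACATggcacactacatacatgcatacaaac
chr8:114722545-114722624, plus strand: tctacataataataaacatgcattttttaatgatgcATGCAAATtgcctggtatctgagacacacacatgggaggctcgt
chr8:88931083-88931162, plus strand: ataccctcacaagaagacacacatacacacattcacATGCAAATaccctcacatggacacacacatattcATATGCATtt
The fragment from chromosome 12 holds ATGCACAT beside ATGCAAAT, and that member's window (100 bp on each side of the midpoint, the window used throughout) held 30 copies of ATGC counted over both strands. The other windows held between 4 and 9 copies. Scores of these 6 peaks ran from 1158 to 1499.

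High scores also occurred without the octamer. The following 3 are among the 4 highest-scoring members without ATGCAAAT even when 1 mismatch was allowed, each with the score 3100, shown for 60 bp on each side of the midpoint. Capitals mark ATGC in either direction.
chr7:87854008-87854128, plus strand: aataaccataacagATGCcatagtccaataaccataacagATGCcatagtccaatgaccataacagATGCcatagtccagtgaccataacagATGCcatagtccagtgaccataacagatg
chr8:48921708-48921828, plus strand: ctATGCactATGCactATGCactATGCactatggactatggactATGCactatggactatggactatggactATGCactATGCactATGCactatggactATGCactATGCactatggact
chr8:81116099-81116219, plus strand: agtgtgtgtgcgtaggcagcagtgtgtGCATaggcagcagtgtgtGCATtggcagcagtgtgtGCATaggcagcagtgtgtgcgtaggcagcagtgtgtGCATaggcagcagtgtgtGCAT
In each of the 3, ATGC recurs at short intervals within a repeated unit. The windows around them held 8, 14 and 9 copies of ATGC, in the order printed.

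The word that stood out most often in members was ATGCACAT, the octamer with the substitution A6C (position 6 counted from the 5′ end of ATGCAAAT). The 3 highest-scoring members that carried it without ATGCAAAT or ATGCATAT and without a long repeat unit are shown, followed by the 2 highest-scoring members with ATGCGCAT and no such unit. These 5 were chosen after the word counts were seen, and capitals again mark the 4 related words.
chr5:25339253-25339332, minus strand: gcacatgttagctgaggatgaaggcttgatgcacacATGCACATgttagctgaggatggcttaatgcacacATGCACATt
chr2:26930013-26930092, minus strand: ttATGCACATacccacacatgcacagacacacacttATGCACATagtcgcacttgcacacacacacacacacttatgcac
chr2:112363805-112363884, minus strand: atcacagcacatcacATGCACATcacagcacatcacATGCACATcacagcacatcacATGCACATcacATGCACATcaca
chr1:34022764-34022843, plus strand: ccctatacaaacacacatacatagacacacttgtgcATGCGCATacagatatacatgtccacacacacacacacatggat
chr13:110930323-110930402, plus strand: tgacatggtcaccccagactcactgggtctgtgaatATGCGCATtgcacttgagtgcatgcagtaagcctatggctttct
Each of these words is itself a run of 8 alternating bases, and the words sat within or next to further alternating sequence in several of the fragments.

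Octamers and their variants were counted on both strands of these windows and compared with the windows 1000 bp to either side of the same midpoints (25412 flanking windows), with a regular grid of 1271494 windows of the same length over the genome, and with 2 classes of POU5F1 peaks: 22495 peaks that met POU3F1 but no other TF and also lacked the stretch (POU3F1-shared peaks), and the 11627 POU5F1-only peaks at stretches. ATGCAAAT was present in 958 members, or 7.54% (interval 7.09 to 8.01), against 1.67% of the flanks and 1.74% of the grid. ATGCATAT was present in 8.33%, against 1.495% of the flanks and 1.32% of the grid. With both words together, 1912 members (15.05%, 14.4 to 15.7) held an octamer, where the share over all EpiSC POU5F1 peaks was 18.6%. Both forms of the octamer were thus more frequent at members than in the sequence next to them, by 4.52 and 5.57 times.

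ATGCACAT was more frequent than either. It was present in 1588 members (12.5%, 11.9 to 13.1), in 1.495% of the flanks and in 1.38% of the grid, a ratio of 8.36 to the flanks. ATGCGCAT was rare, in 119 members (0.937%), but its ratio to the flanks was 13.2, with 18 of the 25412 flanking windows holding it. Together the 4 words were found in 26.0% of members, 4.55% of flanks and 4.35% of the grid. A high ratio was not limited to words with ATGC. ATGTACAT, an alternating word without it, was in 5.49% of members and 0.791% of flanks, a ratio of 6.94. It was in 3.13% of the POU3F1-shared peaks and 15.4% of the POU5F1-only peaks at stretches. Its difference from the former was 2.35 points (1.90 to 2.82).

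Among the 24 single-base neighbours of ATGCAAAT, A6C had the highest ratio of members to flanks, followed by A5G (ATGCGAAT, 0.535% of members, ratio 6.18) and A6T (ATGCATAT). These 3 exceeded the octamer itself. The lowest ratios belonged to G3C (ATCCAAAT, 1.46) and T2G (AGGCAAAT, 1.64), which alter the ATGC part. Other changes in that part, A1G (GTGCAAAT, 3.70) and T2C (ACGCAAAT, 3.68), ranked 4 and 5 of the 24. A5C (ATGCCAAT, 1.90), outside it, ranked 21, so the ratios did not divide by the part altered. ATGTAAAT, with C4T, was present in 7.15% of members and had a ratio of 2.78. With up to 1 mismatch, 58.8% of members and 24.8% of flanks held the octamer.

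The comparison with POU3F1-shared peaks asks whether peaks that POU5F1 did not share with its relative differ in octamer content. For ATGCAAAT they did not differ beyond counting error: 7.54% against 7.49%, a difference of 0.05 percentage points (−0.51 to 0.63). For ATGCACAT the members were higher, 12.5% against 6.25%, a difference of 6.25 points (5.60 to 6.91). ATGCATAT was higher by 2.22 points (1.66 to 2.80), which carried the octamer share as a whole to 15.05% against 13.003%, a difference of 2.05 points (1.29 to 2.81). ATGCTAAT, with A5T, went the other way at 2.61% against 3.58%, and TAATTA, the core read by many homeodomains, was present in 11.4% against 19.5%. GC content differed between the classes as well, with a mean of 36.5% in members and 32.4% in POU3F1-shared windows, and its part in these differences was tested only for the octamer share, which stayed positive in the middle group of the list by GC content. Of the 24 neighbours, 5 had a higher and 11 a lower share in members with an interval that left out 0, and 8 intervals included 0.

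The octamer share and the alternating run are tied by construction, because ATGCATAT is itself a run of 8 bp and any alternating base next to it places its window in a group of longer runs. ATGCATAT was present in 0.806% of members with a longest run of at most 8 bp and in 19.1% at 16 to 19 bp. Among peaks whose longest run was at most 8 bp, the difference between members and POU3F1-shared peaks was −0.15 points (−1.03 to 0.77), and among peaks with a longest run of 9 to 11 bp the difference was −0.14 points (−1.59 to 1.35). At 12 to 19 bp it was −1.66 points (−3.48 to 0.16). These 3 groups were chosen after the data were examined, the grouping uses a length that one of the counted words helps to set, and the values are given as a description only.

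Against POU5F1-only peaks at stretches, members had fewer octamers, 15.05% against 28.4%, a difference of −13.4 points (−14.4 to −12.4). The deficit lay in ATGCATAT, at 8.33% against 26.1%, since ATGCAAAT was more frequent in members at 7.54% against 3.29% (a difference of 4.25 points, 3.68 to 4.81). ATGCACAT reached 38.1% at stretches. ATGCATAT and ATGCACAT are alternating words, so the stretch rule itself bears on these shares.

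**Figure D2:**
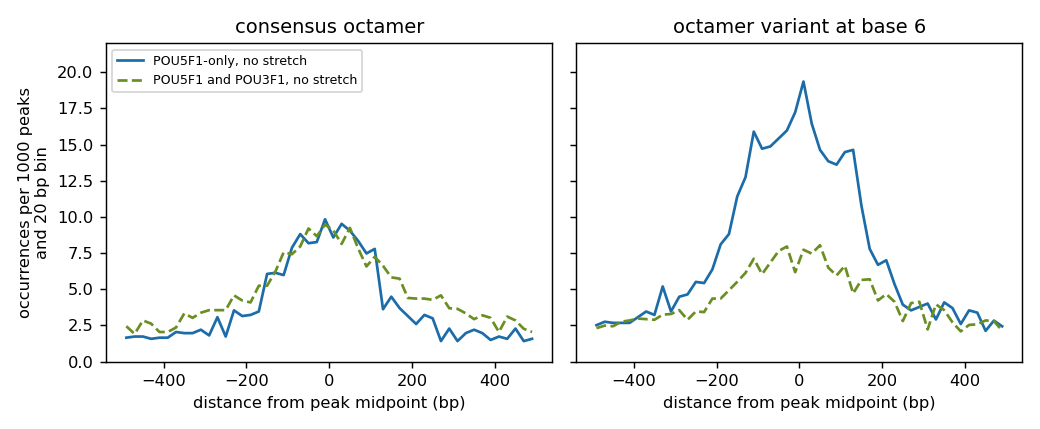
Occurrences of the consensus octamer (left) and of its variant with A6C (right) per 1000 peaks and 20 bp bin (vertical axis) against the distance from the peak midpoint in bp. Around the midpoint both words are more frequent than 400 bp away in members (solid) and in POU3F1-shared peaks (dashed). The variant is on a plateau in POU3F1-shared peaks, with 6.18 in the bin from −20 to 0 bp and 8.05 in that from 40 to 60 bp, and is higher in members, with 18.3 occurrences per 1000 peaks and bin in the central 40 bp against 6.96.

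In members, both words gathered around the midpoint. There, ATGCAAAT occurred 9.21 times per 1000 peaks and 20 bp bin in the central 40 bp and 1.67 times beyond 400 bp on average, a ratio of 5.51. The ratio was 6.60 for ATGCACAT and 5.19 for ATGCATAT. In POU3F1-shared peaks the same ratios were 3.80, 2.71 and 2.53, so the ratio was higher in members for all 3 words. For ATGCAAAT the central rates were alike, at 9.21 in members and 9.27 in POU3F1-shared peaks. There the ratios differed by the rates beyond 400 bp, 1.67 in members and 2.44 in POU3F1-shared peaks. In POU5F1-only peaks at stretches the ratios were 3.19, 33.6 and 27.4. The rise at stretches was thus far steeper than in members for ATGCACAT and ATGCATAT, and less steep for ATGCAAAT. The stretch rule acts only within 100 bp of the midpoint. It removes alternating windows there from members and POU3F1-shared peaks, which can lower their central count of the alternating words, and it gathers such windows in the peaks at stretches.

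Words for other TFs were close to the flanks or below them. The SOX words ACAATG and ACAAAG were present in 15.6% and 16.6% of members, with ratios of 1.22 and 0.896. The OTX word GGATTA was present in 7.56% (ratio 0.954) and the ZIC word CCTGCTG in 2.46% (ratio 0.643). Words of bHLH factors (CAGCTG, 0.600) and CTCF (AGGGGGC, 0.622) were below the flanks, while FOX (TGTTTAC, 1.59), homeodomain (TAATTA, 1.52) and AP-1 (TGANTCA, 1.43) words were somewhat above. A match says only that these letters lie in the window.

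Paired POU arrangements were rare. ATGCAT followed directly by ATGCAT, a palindromic arrangement known to hold POU dimers, was in 18 members (0.142%) and 2 flanking windows. It was in 0.757% of POU5F1-only peaks at stretches and 0.337% of all POU5F1 peaks. As this arrangement is itself an alternating run, the stretch rule bears on its share in members. ATGCAT followed directly by ATTCAT was in 24 members (0.189%), again with 2 in the flanks, and in 0.189% of all POU5F1 peaks. The SOX and octamer pair joined with 1 bp between them, CATTGT and ATGCAAAT, was in 0 members, which allows a share of up to 0.0236% (3 of 12706). It was in 0.00047% of grid windows, so rare that the count of 0 says nothing about members. CATTGT before ATGC was in 16 members (0.126%), against 0.0433% of flanks, 0.102% of POU3F1-shared peaks and 0.0946% of all POU5F1 peaks. The arrangement with ATTTGA before AATGCAAAT was in 0 members and 0.0118% of flanks. These pairs overlap the single words above.

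Words of 6 bases were also ranked over all 2080 that differ after joining each with its reverse complement. The highest ratio of members to flanks belonged to CGCATA, in 5.12% of members (ratio 5.45), then TGCGCA in 3.62% (4.67) and ATGCGC in 4.44% (4.37). ATGCAT followed in 24.5% (3.44), CATATG in 23.5% (3.37) and ATATGC in 34.0% (3.31). The rest of the first 10 were TATGCA in 38.9% (3.27), TACGCA in 3.55% (3.26), ACGCAT in 5.52% (3.11) and ATGCAC in 30.6% (3.10). All 10 alternate strictly between purines and pyrimidines, as do 72 of the 2080 words. Of the 72 alternating words, 66 were more frequent in members than in the flanks, with a median ratio of 1.95 against 0.798 for the other words.

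Short alternating runs were thus a feature of peaks chosen for lacking long ones. The longest run in the window had a median of 10 bp in members and 8 bp in POU3F1-shared peaks. A run of 16 to 19 bp was the longest in 15.4% of members, in 5.28% of POU3F1-shared peaks, in 1.66% of flanking windows without a stretch and in 1.38% of grid windows without one. Runs of at most 8 bp were the longest in 37.1%, 52.2%, 72.9% and 75.1%.

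**Figure D3:**
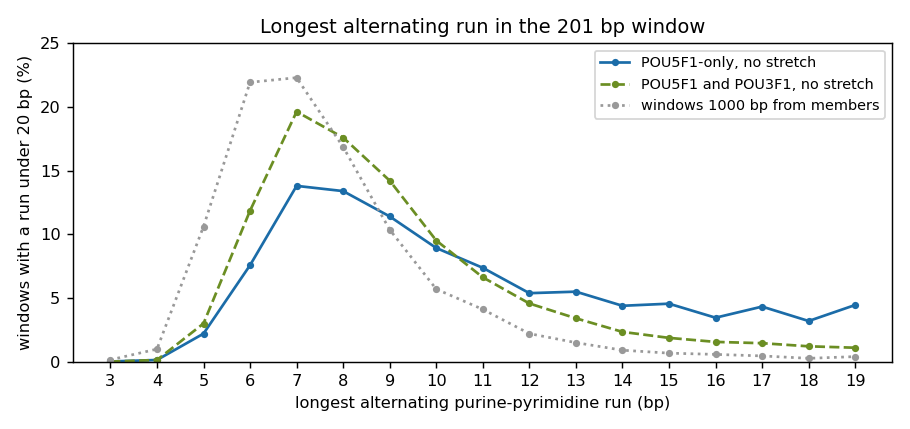
Share of windows (vertical axis, percent of windows with a longest run under 20 bp) by the length of the longest alternating run in bp (horizontal axis). Members (solid) lie below the flanking windows (dotted) up to 8 bp and above them from 9 bp, and 4.45% of members have a run of 19 bp against 0.392% of flanks.

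Members with longer runs scored higher. The peak score is the score column as deposited, taken here as the value that the peak caller MACS gave each peak, and its formula is not given in the sources used here. It was 50 at the lowest, and its median was 89.4 for the 4714 members with a longest run of at most 8 bp, 90.7 at 9 to 11 bp, 96.0 at 12 to 15 bp and 122 at 16 to 19 bp. ATGCACAT was present in 1.17%, 10.6%, 20.9% and 32.3% of these 4 groups, and ATGCAAAT in 6.81%, 8.70%, 8.07% and 6.54%. As ATGCACAT is an alternating run of 8 bp and ATGCAAAT is not one, the grouping itself bears on these shares, and nothing is read from the contrast between the words. Among the members with runs of at most 8 bp, the 6-base words of highest ratio were AATGCG (4.07%, ratio 3.76) and AATTCG (3.82%, ratio 3.33), and 2 of the first 10 alternated, in a group that was chosen for short runs.

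On each side of the limits of the rule, values were as follows. POU5F1-only peaks with a longest run of 18 or 19 bp, just inside, numbered 970 and had a median score of 124, ATGCACAT in 33.2% and an octamer in 23.7%. Those with 20 or 21 bp, just outside, numbered 887 and had 142, 37.8% and 24.7%. The 320 members with a POU3F1 peak at most 200 bp away had a median score of 89.7, and the 243 POU3F1-shared peaks that shared at most 200 bp had 79.2. An activin-free POU3F1 peak overlapped 37.2% of the former and 67.1% of the latter, so the median scores lay close at this limit while the activin-free POU3F1 overlap did not.

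Members were weak peaks as a class. Their scores ran from 50 to 3100 with a median of 94.3, against 134 for POU3F1-shared peaks, 161 for POU5F1-only peaks at stretches and 133 over all POU5F1 peaks. Their median width was 863 bp, against 1025 bp for POU3F1-shared peaks and 930 bp for POU5F1-only peaks at stretches, and the widest measured 7014 bp. A narrow peak passes a rule of no shared base pair more readily, so the selection itself bears on the contrast with POU3F1-shared peaks. Its part in the width and score differences was not tested. In 6 score bands of equal size the octamer share was 15.2%, 14.1%, 14.6%, 14.9%, 14.9% and 16.6% from the lowest to the highest, and ATGCAAAT alone went from 7.98% to 5.90%. ATGCACAT was present in 10.5%, 11.2%, 11.9%, 11.1%, 12.7% and 17.6%, and ATGCATAT in 7.93%, 6.66%, 7.74%, 7.84%, 8.36% and 11.4%. For both words the highest band stood above the other 5. ATGCACAT reached 28.3% (21.2 to 36.7) in the 127 members of the highest 1% by score. Copies of ATGC per window averaged 2.94 in the lowest band, 3.94 in the highest and 6.46 in the highest 1%, against 3.18 over members. The average was 2.46 in POU3F1-shared peaks and 1.48 in the flanks, but 5.47 in POU5F1-only peaks at stretches. Over all POU5F1 peaks it was 3.48, above that of members. ATGC is itself an alternating word, so the stretch rule bears on the comparisons with peaks at stretches and with all POU5F1 peaks.

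The 10 highest-scoring members lay on 7 chromosomes, 9 of them with the score 3100 and the last with 3061. Of these, 9 are given here. The first 4 were chr2:25370406-25371842 (nearest protein-coding gene C8g, 13.9 kb from its start), chr5:25338506-25340091 (Actr3b, 73.5 kb), chr5:102203036-102204899 (Cds1, 9.82 kb) and chr7:87852820-87855316 (Crtc3, a CREB coactivator, 20.3 kb). The others were chr8:48920937-48922598 (Cldn22, a claudin, 11.9 kb), chr8:81115010-81117308 (Slc10a7, 82.9 kb), chr9:75550170-75557183 (Scg3, 21.9 kb), chr19:37101983-37103619 (Btaf1, 102 kb) and chr9:121326603-121327970 (Cck, cholecystokinin, 77.5 kb). By midpoint, of all 10, 6 lay in introns and 4 between genes. All 10 overlapped an activin-free POU5F1 peak of score 3100, and none overlapped an activin-free POU3F1 peak. The shares with any such overlap were 100% and 8.73% in the highest score band, and 96.7% and 8.60% over all members. The overlap counts of the 10 are near these shares, and nothing is read from them. The member on chromosome 9 near Scg3 was also the widest, at 7014 bp.

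Several of these peaks sit on arrays of a long repeat unit, defined after the data were examined as windows that match themselves at 80% or more of positions when shifted by 7 to 70 bp. The 2 highest-scoring members of this kind not yet shown are printed for 75 bp on each side of the midpoint, with ATGC in capitals in either direction. Their units measure 36 and 18 bp.
chr2:25371049-25371199, plus strand: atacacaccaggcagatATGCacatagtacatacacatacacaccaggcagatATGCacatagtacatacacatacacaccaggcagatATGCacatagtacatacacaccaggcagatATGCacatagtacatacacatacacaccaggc
chr9:121327212-121327362, plus strand: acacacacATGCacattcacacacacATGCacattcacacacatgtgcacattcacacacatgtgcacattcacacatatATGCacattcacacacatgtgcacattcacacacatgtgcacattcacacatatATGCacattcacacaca
Such arrays were found at 140 members, or 1.10% (0.935 to 1.30), against 0.801% of all POU5F1 peaks, 0.182% of POU3F1-shared peaks, 1.60% of POU5F1-only peaks at stretches, 0.153% of flanks and 0.150% of the grid. The difference was 0.92 points (0.74 to 1.12) from POU3F1-shared peaks and −0.50 points (−0.79 to −0.21) from POU5F1-only peaks at stretches, where arrays were the more frequent. At 90% identity they were found at 0.653% of members and 0.404% of POU5F1-only peaks at stretches. Of the 10 highest-scoring members 4 were arrays at 80% identity, 7 at 70% and 3 at 90%.

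The array share was highest in the highest score band. In the 6 score bands it was 0.189%, 0.472%, 0.378%, 0.897%, 0.992% and 3.68%, and it was 14.2% (9.16 to 21.3) in the highest 1%. Array members had a median score of 312, a median unit of 29 bp, 8.19 copies of ATGC per window and a mean GC content of 45.2%. Of the 140, 139 overlapped an activin-free POU5F1 peak and 4 an activin-free POU3F1 peak. Perfect runs of units of 1 to 6 bp reaching 20 bp were found at 1.46% of members (1.26 to 1.68) and 8.16% of all POU5F1 peaks. The stretch rule removes runs of alternating units from members, so it bears on this gap. POU5F1-only peaks at stretches had such runs at 22.7%. Without a stretch, they were found at 4.27% of flanking windows and 1.04% of POU3F1-shared peaks. Members differed from the latter by 0.42 points (0.18 to 0.67). This difference was 0.20 points (−0.10 to 0.52) with a score of at least 100 in every list and 0.21 points (−0.15 to 0.62) in the middle group by GC content, both with intervals that included 0.

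Some members share a stretch of sequence with other members. A word of 32 bp was shared with at least 1 other member by 676 members (5.32%), which formed 108 groups, the largest of 58, 57, 55, 50, 45 and 33 members. These groups are called near-identical here for the shared word alone. Windows of 1 group can differ elsewhere, as the 2 shown from the group of 33 do. Reads from shared sequence may fit several places, and how they were placed is not given in the sources used here. Members of 3 of these groups are shown, chosen after the data were examined: 2 from the group of 50 and 2 from the group of 33 (36 bp on each side of an octamer), and 1 from the group of 55 (60 bp on each side of the midpoint, with ATGCGC in capitals).
chr9:44030539-44030618, plus strand: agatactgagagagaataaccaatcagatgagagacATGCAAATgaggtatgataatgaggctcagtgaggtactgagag
chr10:93854692-93854771, minus strand: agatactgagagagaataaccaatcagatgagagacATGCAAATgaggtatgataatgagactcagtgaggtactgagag
chr9:7625263-7625342, plus strand: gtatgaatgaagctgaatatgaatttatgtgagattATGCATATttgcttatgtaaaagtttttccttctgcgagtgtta
chr13:36344539-36344618, minus strand: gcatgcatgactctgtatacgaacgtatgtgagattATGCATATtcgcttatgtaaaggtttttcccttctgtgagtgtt
chr8:75451070-75451190, plus strand: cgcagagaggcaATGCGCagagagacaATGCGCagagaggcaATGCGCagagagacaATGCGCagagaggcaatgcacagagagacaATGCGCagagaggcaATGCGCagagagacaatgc
The group of 33 lay on 17 chromosomes, had a median score of 301, above the median of all members, and 28 of its members held an octamer. In the group of 50, 30 held an octamer and 30 overlapped an activin-free POU5F1 peak. The group of 55 lay on 19 chromosomes with a mean GC content of 58.7%, no octamer, ATGCGC in 53 members and no activin-free POU3F1 peak at any.

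The activin-free lists, which the selection did not use, ask whether these sites were again bound by POU5F1, and again by it alone, in cultures freed from activin. POU5F1 was found again at 12291 members, or 96.7% (96.4 to 97.0), against 98.3% of all POU5F1 peaks. The share was 99.5% for POU3F1-shared peaks and 98.8% for POU5F1-only peaks at stretches, so members were lower than both, with differences of −2.74 points (−3.08 to −2.43) and −2.02 points (−2.39 to −1.65). Members also scored lower than both, and their share found again went from 89.7% in the lowest score band to 100% in the highest. In the middle group of the list by score the differences were only −0.45 points (−0.73 to −0.25) and −0.37 points (−0.66 to −0.11). The part of score was not tested further. The activin-free POU5F1 list is longer, with 126751 peaks against 62387. With that list cut to its 62387 highest-scoring peaks, 70.6% of members were found again, against 89.95% of POU3F1-shared peaks and 84.1% of POU5F1-only peaks at stretches. Where a member was found again its activin-free score was the higher of the pair in 96.9% of cases, with a median ratio of 3.33. Over all POU5F1 peaks these values were 98.4% and 3.83, and as the scores of 2 libraries need not share a scale the ratios are a description.

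**Figure D4:**
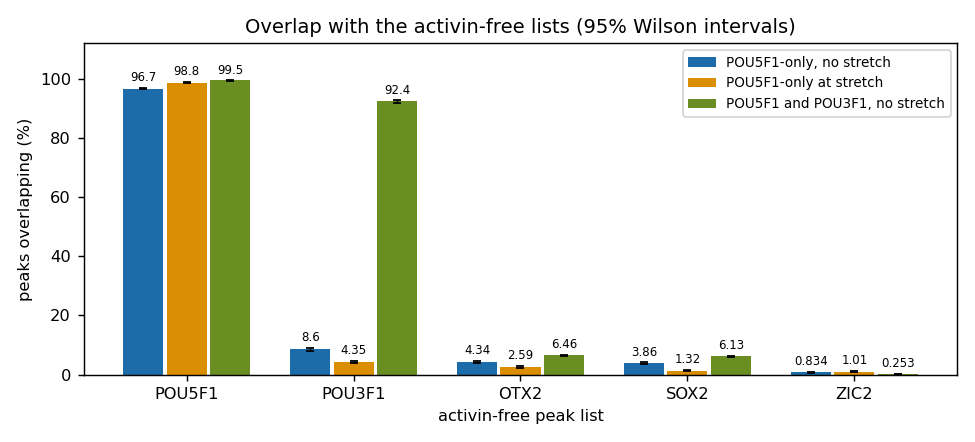
Share of peaks (vertical axis, percent, with 95% Wilson intervals) that overlap each activin-free list (horizontal axis) for members and 2 comparison classes. Members met activin-free POU5F1 peaks at 96.7% and activin-free POU3F1 peaks at 8.60%, against 92.4% for peaks that had been chosen for meeting an EpiSC POU3F1 peak.

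Activin-free peaks of the 4 other TFs met few members, and fewer POU5F1-only peaks at stretches. An activin-free POU3F1 peak overlapped 1093 members (8.60%, 8.13 to 9.10), against 50.6% of all POU5F1 peaks, 92.4% of POU3F1-shared peaks and 4.35% of POU5F1-only peaks at stretches. The first comparison class was chosen for EpiSC POU3F1 peaks, and the difference of −83.8 points (−84.3 to −83.1) restates that choice in a second library. The difference of 4.25 points (3.64 to 4.86) from POU5F1-only peaks at stretches does not rest on it. An activin-free OTX2 peak overlapped 552 members (4.34%, against 11.6% of all POU5F1 peaks), a SOX2 peak 491 (3.86%, against 10.7%) and a ZIC2 peak 106 (0.834%, against 4.70%). All POU5F1 peaks include those that met these TFs in EpiSCs, so the selection bears on the lower shares of members. For POU5F1-only peaks at stretches the shares were 2.59%, 1.32% and 1.01%, in the same order. For POU3F1-shared peaks they were 6.46%, 6.13% and 0.253%. Any of the 4 other TFs overlapped 2054 members (16.2%), while 9922 members (78.1%, 77.4 to 78.8) met an activin-free POU5F1 peak that itself met none of the 4. These shares were 60.9% and 37.1% over all POU5F1 peaks, with the same limit. For POU5F1-only peaks at stretches they were 8.95% and 87.9%, and the difference of the second share was −9.80 points (−10.7 to −8.87). That members met none of the 4 TFs in EpiSCs is the selection itself.

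Members that met an activin-free POU3F1 peak lay closer to EpiSC POU3F1 peaks, at a median gap of 4.61 kb. Of the 320 members with an EpiSC POU3F1 peak at most 200 bp away, 37.2% met one, of the 1081 with one farther than that but within 1000 bp 14.2%, and of the 11305 beyond 1000 bp 7.26%. The share was also lower at longer alternating runs, going from 10.9% at runs of at most 8 bp to 9.52%, 6.52% and 4.19% at 16 to 19 bp (3.39 to 5.17). Members with ATGCAAAT met an activin-free POU3F1 peak in 11.7% of cases (9.81 to 13.9) and members with ATGCACAT in 5.48% (4.46 to 6.71). Across the EpiSC lists, the nearest POU3F1 peak lay at a median of 13.4 kb from a member, the nearest OTX2 peak at 10.7 kb, SOX2 at 14.7 kb and ZIC2 at 14.9 kb, and 28.8% of members had a peak of some other TF within 1000 bp.

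The 415 members without an activin-free POU5F1 peak (3.27%) were the weaker ones, with a median score of 58.5 against 97.0, but richer in octamers. An octamer was present in 96 of them (23.1%), against 14.8% of the members found again, a difference of 8.36 points (4.50 to 12.7). For ATGCAAAT the shares were 13.5% and 7.34% (difference 6.16 points, 3.16 to 9.81), and for ATGCGCAT 6.51% and 0.749% (5.76 points, 3.75 to 8.56). ATGCACAT, at 12.8% and 12.5%, did not differ beyond counting error (0.28 points, −2.65 to 3.88). Among the members in the 3 lower score bands, 398 were not found again and the octamer difference was 9.31 points (5.32 to 13.8). From the lowest band up it was 11.6 points (5.996 to 17.9), 2.68 points (−3.39 to 10.95) and 12.6 points (3.55 to 24.0), and the second of these intervals included 0. Over all members it was 8.31 points (4.19 to 12.99) without the near-identical windows, which include 60 of the 415. Mean GC content was 41.0% in the 415 and 36.3% in the others, and its part in this difference was not tested. These groups were chosen after the data were examined.

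Members were near genes about as often as windows of the grid, and more often than POU3F1-shared peaks. A transcription start site (TSS) of any annotated transcript lay within 50 kb of 8017 members (63.1%, 62.3 to 63.9), against 57.5% of all POU5F1 peaks and 63.0% of grid windows. It was 47.3% for POU3F1-shared peaks, a difference of 15.8 points (14.7 to 16.8). The study describes genomic domains rich in POU3F1 peaks as sparse in genes, so the choice by POU3F1 bears on this difference. For POU5F1-only peaks at stretches the share was 64.5%, a difference of −1.43 points (−2.63 to −0.22). The direction against the peaks at stretches depended on the distance, with a difference of 0.49 points (0.12 to 0.86) within 1 kb, 0.98 points (0.10 to 1.86) within 5 kb and 0.59 points (−0.50 to 1.68) within 10 kb. In the middle group of peaks by GC content the difference from peaks at stretches within 50 kb was −0.36 points, with an interval that included 0. Within 1 kb of a TSS the share of members was 2.47%, and the median distance was 29.3 kb. By midpoint, 2.40% of members lay in exons, 43.2% in introns and 54.4% between genes, against 3.39% and 37.8% of grid windows in exons and introns. The intron share was 39.7% for POU3F1-shared peaks and 42.9% for POU5F1-only peaks at stretches, so members lay farther from the grid than POU3F1-shared peaks by this measure.

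**Figure D5:**
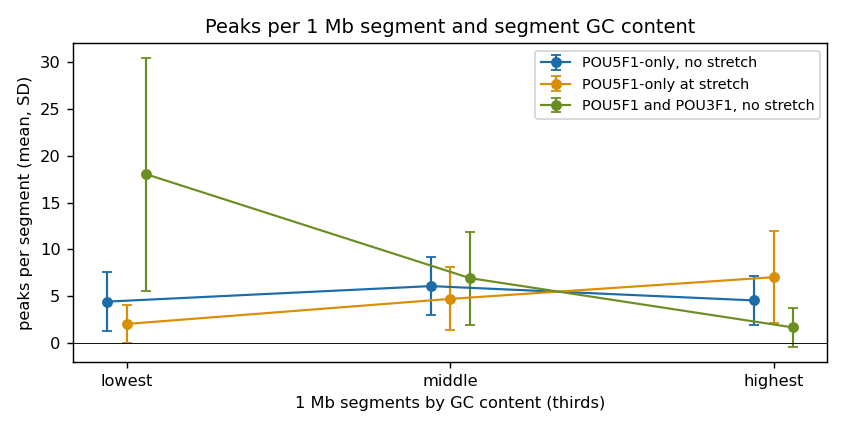
Peaks per 1 Mb segment (vertical axis, mean with SD over 845 segments) in segments grouped by GC content into 3 equal groups (horizontal axis). Members average 4.41, 6.07 and 4.54 from the lowest to the highest GC content, POU3F1-shared peaks fall from 18.0 to 1.65, and POU5F1-only peaks at stretches go from 2.02 to 7.02.

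Over 2535 segments of 1 Mb, members averaged 5.01 per segment (SD 3.07) and 120 segments (4.73%) had none. The variance was 1.89 times the mean, against 12.2 times for POU3F1-shared peaks and 3.80 times for POU5F1-only peaks at stretches. Spearman's rho between the number of peaks and the GC content of the segment was 0.03 for members, −0.74 for POU3F1-shared peaks and 0.58 for POU5F1-only peaks at stretches, a description over neighbouring segments that are not independent. By this ratio members were the most evenly spread of the 3 classes. The segments with most members were chr1:125000001-126000000 with 20, chr15:52000001-53000000 with 19 and chr7:67000001-68000000 with 18. By chromosome, density ran from 3.69 per Mb on X and 3.94 on chromosome 7 to 5.60 on chromosome 2. Adjacent members lay a median of 114 kb apart, and 4.45% of the gaps were under 5 kb.

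Members were also counted within gene spans. In the annotation (GENCODE vM1), 3114 of 22350 protein-coding genes (13.9%) had a member within their span, at a genome-wide density of 4.81 members per Mb. The 10 genes with most were Fgfr2, an FGF receptor, with 18 (its annotated span there is 3009 kb), Macrod2 with 16, Dpp10 with 15, Rims1, a presynaptic scaffold, with 14, Cntnap2, a neurexin-related adhesion protein, Dmd (dystrophin) and the zinc-finger gene Zbtb20 with 13 each, and the catenins Ctnna2 and Ctnna3 and Nckap5 with 12 each. Per Mb of span, Fgfr2 held 5.98 and Macrod2 8.01 members, and the shorter Dpp10 held more. The gene Dmd had 119 POU5F1 peaks in all, 86 of them POU3F1-shared, while Fgfr2 had 58 and 4.

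Genes of the epiblast and its derivatives were examined from 4 lists, by members within 50 kb of their TSS. A member lay there for 5 of 19 pluripotency genes found in the annotation (26.3%), 9 of 19 epiblast genes (47.4%), 5 of 17 primitive streak and endoderm genes (29.4%) and 7 of 19 neural plate genes (36.8%), against 33.0% of all 22350 protein-coding genes. The lists therefore lay on both sides of the share for all genes, and no test of the lists was made. Any POU5F1 peak lay within that distance for 14, 17, 12 and 14 of these genes, in the same order, and for 16105 of the 22350 protein-coding genes.

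The list genes with a member that held ATGCAAAT or scored 325.8 or more (the highest 10% of members) were 10. Sox2, which encodes the usual partner of POU5F1, had 3 members nearby, one 49.8 kb upstream of its start with a score of 1158 and ATGCACAT, in an intron of an overlapping transcript. Prdm14, a pluripotency regulator, had one 27.8 kb downstream of its start, score 1361. Zic2 and its neighbour Zic5 shared one at chr14:122834098-122835419, score 398, with ATGCACAT. These 3 peaks held no ATGCAAAT, and all were found again in the activin-free POU5F1 list with scores of 3100, 3100 and 1712.

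Among genes of the primitive streak, Mixl1, a homeobox gene, had a member of score 833 at 18.0 kb, Wnt8a one of score 1049 and one of score 88.0 with ATGCAAAT, and Eomes, a T-box gene, one of score 60.5 with ATGCAAAT at 13.4 kb. Among neural plate genes, Pax2 had one of score 844 with ATGCACAT, 28.9 kb upstream, and Meis1 one of score 344 and one of score 77.2 with ATGCAAAT. Lhx2, a LIM homeobox gene, had one of score 125 with ATGCAAAT, 41.4 kb downstream of its start. These members were picked for that word or for a high score, so nothing is read from how the 2 features fall among them. None of the members named here for these list genes met an activin-free POU3F1 peak. Over all members the share was 8.60%, so with so few members nothing is read from this. Of the Sox2 members not picked, the one 18.0 kb downstream of its start (score 224) did meet an activin-free POU3F1 peak. The one 3.91 kb downstream (score 59.7) had no activin-free POU5F1 peak.

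The transfected gene itself did not enter the set. Of the EpiSC POU5F1 peaks, 2 overlapped the Pou5f1 gene, both over its exons, where carried-over plasmid would also give signal, and 0 of them were members.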

How the data were processed

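Per the labels and the study's methods, the authors used Bowtie2 to place reads on mm9, and MACS with an input library as reference to call peaks, with a band width of 150 bases and otherwise default settings. The deposited lists give each peak's position and a score, and this score was used as deposited. No read counts were used, so the depth of each library is unknown, and the input library was not analysed here.

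Peaks on chromosomes 1 to 19 and X were compared by an overlap of at least 1 bp, with windows of 100 bp on each side of the midpoint read from the NCBIM37 (mm9) genome and genes from GENCODE vM1. Shares of peaks were compared by Newcombe intervals, past the threshold where 0 was left out. Functions were tested on simulated data (Python 3.11.15, numpy 2.4.6, scipy 1.17.1, pandas 2.3.3, matplotlib 3.10.9).

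The members and lists were chosen with earlier results of these data known. Named items were the 10 highest-scoring members, the 6 highest-scoring with ATGCAAAT and 4 without it within 1 mismatch (chromosome 18 not printed), the 10 protein-coding genes and 3 segments with most members, list genes with a member within 50 kb that held ATGCAAAT or scored in the highest 10%, the fixed words, the neighbours of ATGCAAAT and 10 words of 6 bases. Alternatives changed score, overlap, window, stretch, distance, chromosomes, width, GC content, motif, list length, TSS set and run length. Those on alternating runs, near-identical windows and ATGCATAT alone were added after the data were examined. One of the named members is not reported here.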

Additional observations from a re-analysis of the deposited data

How the results depend on the processing

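Over 131 recomputed values of the 10 fixed results, 116 kept their direction and their side of the threshold or, for 5 of the 8 values of the member count, which has neither, stayed within 1.5 times the number reported. The 4 differences in activin-free overlap, and that in the share near a TSS against POU3F1-shared peaks, kept both under every alternative run. Those in activin-free POU5F1 overlap were smallest in the middle group by score, at −0.45 points against POU3F1-shared peaks and −0.37 against POU5F1-only peaks at stretches. The number of members was 7893 with a score of at least 100 in every list, 23141 with 50% reciprocal overlap and 8233 with a stretch of at least 12 bp. The octamer difference against POU3F1-shared peaks no longer left out 0 with 50% reciprocal overlap (0.56 points), with a stretch of at least 12 bp (0.32) and with ATGCAAAT alone (0.054), and changed sign with up to 1 mismatch (−0.22) and within runs of at most 8 bp (−0.15), 9 to 11 bp (−0.14) and 12 to 19 bp (−1.66), a grouping that ATGCATAT itself helps to set. Against POU5F1-only peaks at stretches it changed sign with ATGCAAAT alone (4.25). The share near a TSS against those peaks was −0.36 points in the middle group by GC content and 0.59 at 10 kb. The tandem repeat difference was 0.20 points with a score of at least 100 and 0.21 in the middle group by GC content, both with intervals that included 0. The causes were not tested.

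No paired analysis was possible because each TF and culture has 1 library. The depth of the libraries is unknown, so an absent overlap says only that no peak was called there, and peak scores of different libraries were not put on 1 scale. Peaks are not replicates of a condition.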

Other observations

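X-chromosome members made up 23.7% of that chromosome's 2600 POU5F1 peaks, the highest share of the 20 chromosomes, although their density there was the lowest at 3.69 per Mb. The lowest share was 17.4% on chromosome 12. POU5F1-only peaks at stretches had a density of 1.19 per Mb on X and between 3.55 and 5.96 per Mb on the autosomes.

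Members with ATGCGCAT, a word with a central CpG, overlapped an activin-free POU5F1 peak in 92 of 119 cases (77.3%, 95% Wilson interval 69.0 to 83.9). The shares were 94.2% (92.5 to 95.5) with ATGCAAAT, 95.8% with ATGCATAT and 96.7% with ATGCACAT. Outside the near-identical groups the count was 90 of 116. The median EpiSC score of the 119 was 83.8 and their mean GC content 41.5%, against 36.1% in members with ATGCAAAT. Members in near-identical groups met an activin-free POU5F1 peak in 91.1% of cases, and the other 12030 members in 97.0%. The 5179 members with none of the 4 words and at least 2 mismatches to the octamer had a median score of 96.5, and 97.2% of them (96.7 to 97.6) met an activin-free POU5F1 peak. These groups were chosen after the data were examined.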
